A study of Mus musculus with 15 samples.

Results

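The messenger RNAs of the translation initiation and elongation factors were followed from the zygote to the 2-cell embryo in mice with and without maternal Usp16. Members were all genes of the deposited expression table whose name starts with Eif followed by a digit from 1 to 6, or with Eef. The Argonaute genes listed under their older names Eif2c and the oocyte paralog Eif4e1b were left out. The rule used names alone and gave 61 of the 14392 genes in the table. The data came from 8 RNA-seq libraries of pooled embryos, 2 in each of 4 groups and 10 embryos per library. WT denotes embryos labelled wild type, as 1-cell embryos (called zygotes below) and as 2-cell embryos. The cKO embryos came from Usp16 fl/fl;Gdf9-Cre mothers on a C57BL/6 background mated to WT males, so that the maternal allele was deleted and the paternal allele was intact. Gdf9-Cre is active in oocytes, and the embryos of all groups were cultured in KSOM medium. A library is a pool of whole embryos, so that fewer cells and less RNA per cell cannot be told apart, and the labels do not say whether replicates came from separate females.

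Initiation factors bring the small ribosomal subunit, the initiator tRNA and the messenger together. eIF1 and eIF1A keep the subunit open for scanning, eIF2 carries the initiator tRNA and is recharged by eIF2B, eIF3 is the large scaffold on the small subunit, eIF4E binds the cap within eIF4F, and eIF5, eIF5B and eIF6 act when the subunits join. Elongation factors then deliver each aminoacyl-tRNA (eEF1) and move the ribosome along (eEF2). The early embryo first translates messengers stored in the oocyte, which are cleared while the embryo's own genome is switched on at the 2-cell stage.

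All values are FPKM, mapped fragments scaled to transcript length and library size. The deposited table has a floor of 1, and lower values were raised to it. Depth is not known from such values, and no counting error can be given. Usp16, the deleted gene, was at 184 and 187 FPKM in the WT zygote libraries and at 16.8 and 22.0 in the cKO zygotes. In 2-cell embryos it was at 168 and 183 in WT and at 168 and 84.8 in cKO, where the first cKO library nearly met the lower WT library (log2 difference -0.55 ± 0.53 SE, adjusted p = 0.564, limma). The replicates of cKO 2-cell embryos were the least alike. Of the 61 members, 26 differed by more than 2-fold between them, compared with 1 in WT 2-cell embryos and 0 in both zygote groups. The corresponding share of all genes in cKO 2-cell embryos was 30.4%. Markers of oocyte transcripts (7 of 7 listed) summed to 10709 to 11559 FPKM in the zygotes, 5942 and 4771 in WT 2-cell embryos and 1082 and 2586 in cKO 2-cell embryos. The 3 of 5 markers of the 2-cell stage that were listed summed to 4.45 to 7.99 in the zygotes, 332 and 539 in WT 2-cell embryos and 133 and 126 in cKO 2-cell embryos. Cumulus markers (3 of 7 listed) summed to between 20.1 and 41.9, with Cyp19a1 at 22.3 to 26.7 in the zygotes and 1 to 1.78 in 2-cell embryos and Amhr2 at the floor in the zygotes and at 17.8 to 32.7 in 2-cell embryos. The 1 of 3 blood markers listed was between 1 and 8.66. Sperm markers (3 of 4 listed) summed to between 3 and 22.1, with Prm2 at 13.5 to 20.1 in the zygotes and 1 to 1.64 in 2-cell embryos.

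In zygotes, the 61 members made up between 0.939% and 0.987% of the summed FPKM of a library. Their share was 1.17% and 1.19% in WT 2-cell embryos, and 2.12% and 1.27% in the cKO 2-cell libraries, so that only the first cKO replicate stood far above WT. The median member was at 24.4 to 27.3 FPKM in the zygotes, at 51.8 and 48.5 in WT 2-cell embryos, and at 92.8 and 64.8 in cKO 2-cell embryos. Eif1, Eif5a and Eif4e had the highest means over the 8 libraries. Eif5a encodes the factor that relieves stalled ribosomes. In every zygote library Eif5a, Eif1b, Eif1, Eif2b1 and Eif2s2 were the 5 most abundant members. By contrast, Eif1a, Eif2s3y, Eif3j and Eif5a2 were at the floor in all 4 zygote libraries.

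**Figure D1:**
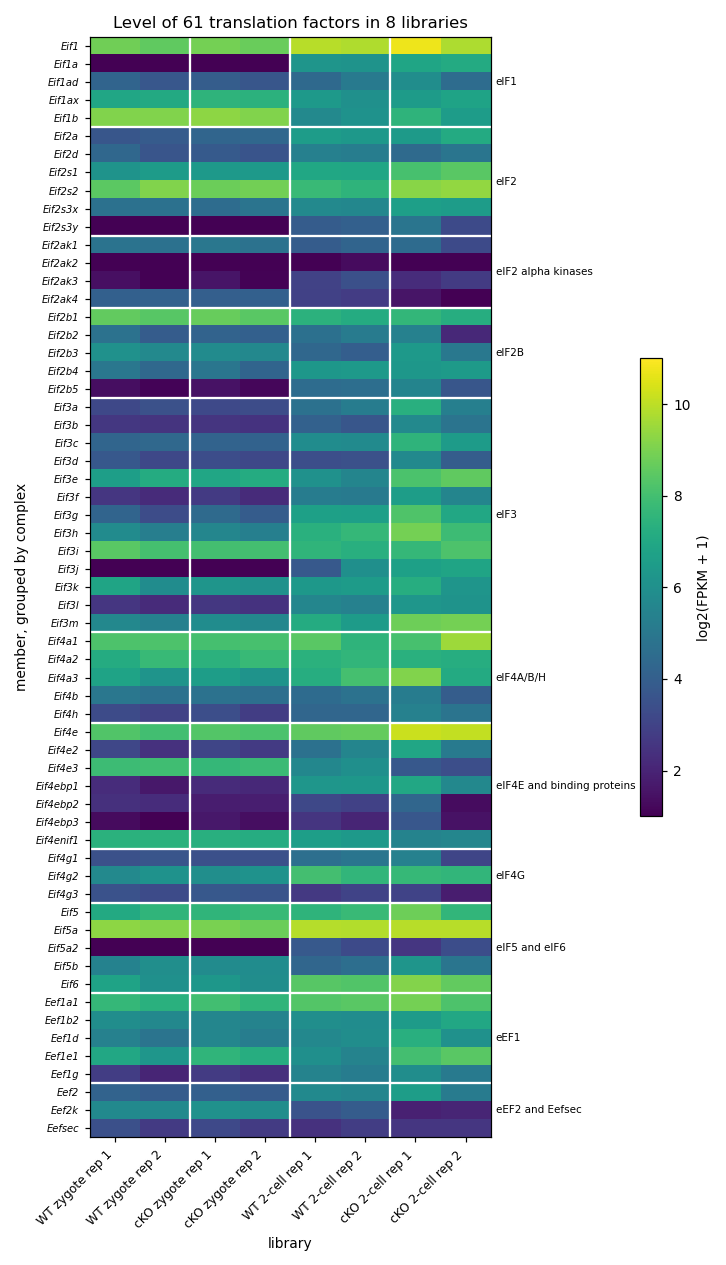
Level of each of the 61 members (rows, grouped by complex) in each of the 8 libraries (columns), as colour on a log2(FPKM + 1) scale. Eif1a, Eif2s3y, Eif3j and Eif5a2 are at the floor in the 4 zygote libraries and above it in the 4 2-cell libraries, and Eif1b, Eif4e3 and Eef2k are darker in the 2-cell libraries.

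The change from zygote to 2-cell embryo was first measured in WT. Genes were tested with limma on log2(FPKM + 1) with a weight for each group, and called at a Benjamini-Hochberg adjusted p under 0.05 over all genes. Of the 61 members, 26 rose and 12 fell. Over all genes, 36.6% rose and 14.9% fell. With each library scaled to its median ratio, 22 members rose and 16 fell, beside 4336 and 2945 of all 14392 genes. When 1 of the WT 2-cell libraries was left out, fewer members and fewer of all genes were called. In these fits the members were called higher less often than all genes. The median member changed by 0.89 on the log2 scale without WT 2-cell replicate 1 and by 0.73 without replicate 2. For the median gene these changes were 0.26 and 0.28. By the fold of the means, 20 members were more than 3-fold higher and 4 more than 3-fold lower, beside 26.0% and 8.78% of all genes. The median member changed by 0.78 on the log2 scale, and the median gene by 0.27.

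The scanning factor eIF1A is encoded by Eif1ax and Eif1a. Eif1ax was at 120 and 135 FPKM in WT zygotes and was called lower in WT 2-cell embryos, at 82.1 and 64.1. The largest rise of all members was that of Eif1a. Its libraries were at the floor of 1 in both WT zygotes and at 73.8 and 70.3 FPKM in WT 2-cell embryos, at least 72.1-fold higher (log2 change 5.19 ± 0.17 SE, adjusted p = 4.2e-05). Eif4ebp1, a repressor that binds eIF4E, went from 3.83 and 2.17 to 76.1 and 77.2 FPKM (25.6-fold, adjusted p = 0.000252). Eif3j, the loosely attached subunit of eIF3, left the floor to reach 12.9 and 62.7 FPKM, with replicates 4.85-fold apart (at least 37.8-fold, adjusted p = 0.00124). Eif2b5, the catalytic subunit of the exchange factor eIF2B, rose from 1.59 and 1.16 to 22.0 and 23.2 FPKM (16.4-fold, adjusted p = 0.000697). Eif2s3y and Eif5a2 also left the floor, by at least 14.8-fold and 10.6-fold. Eif2s3y encodes the Y-linked copy of eIF2 gamma and Eif5a2 the second eIF5A. In all of these the 2-cell libraries lay above the zygote libraries.

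Among the members that fell, Eif1b, a close paralog of Eif1, went from 543 and 554 FPKM in WT zygotes to 51.9 and 67.0 in WT 2-cell embryos (9.23-fold lower, log2 change -3.20 ± 0.26 SE, adjusted p = 0.000175). In the same libraries Eif1 itself rose from 451 and 381 to 963 and 899 FPKM (2.24-fold, adjusted p = 0.0151). Eif4e3, a cap-binding member of the eIF4E family, fell from 228 and 243 to 48.4 and 63.0 FPKM (4.23-fold, adjusted p = 0.000391). Eef2k, the kinase that inhibits eEF2, fell from 52.8 and 53.1 to 10.7 and 13.9 FPKM (4.31-fold, adjusted p = 0.000404). Eif2b3, the gamma subunit of eIF2B, fell from 66.5 and 51.3 to 19.5 and 14.9 FPKM (3.42-fold, adjusted p = 0.0055). Within complexes the direction was mixed, beside 36.6% of all genes that rose and 14.9% that fell. Of the 13 eIF3 genes 9 rose and 2 (Eif3e and Eif3i) fell, and of the 5 eIF2B genes 2 rose (Eif2b4 and Eif2b5) and 2 fell (Eif2b1 and Eif2b3). Of the 6 genes of the eIF2 group 4 rose and Eif2s2 fell. No member of the helicase group Eif4a1, Eif4a2, Eif4a3, Eif4b and Eif4h passed the test.

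The comparison of cKO with WT 2-cell embryos asks how factor messengers differ after loss of maternal Usp16. Most members lay higher in cKO than in WT, while few passed the test. The log2 difference was above 0 for 44 members (35 with libraries scaled to the same sum) and below 0 for 17, with a median of 0.43, whereas the median over all genes was -0.30. Both cKO libraries lay above both WT libraries for 27 members, beside 14.0% of all genes, and below them for 7 members, beside 43.4% of all genes. These numbers were 42 and 4 with median-ratio scaling, beside 21.8% and 28.0% of all genes, and 17 and 9 with libraries scaled to the same sum, beside 9.57% and 47.6%. The 7 were Eef2k, Eif2ak3, Eif2ak4, Eif2d, Eif4a2, Eif4e3 and Eif4enif1. In the limma test 2 members were called lower and 0 higher, beside 5.93% and 0.834% of all genes. At an unadjusted p under 0.05 there were 4 lower and 11 higher members, beside 20.6% and 4.79% of all genes. By the fold of the means 3 members were more than 3-fold lower (Eif4e3, Eef2k and Eif2ak4) and 7 more than 3-fold higher, beside 13.5% and 2.84% of all genes. Without cKO 2-cell replicate 1 the number lower was 6, and without cKO 2-cell replicate 2 the number higher was 14. Scaling each library to its median ratio moved the median gene from -0.30 to 0 and the median member to 0.91. With that scaling limma called 4 members higher (Eif1a, Eif3b, Eif3c and Eif4e) and 0 lower, beside 245 and 345 of all 14392 genes. Against the WT mean, 49 members were higher in the first cKO replicate and 30 in the second, and without the first replicate the median member was at -0.04 and 30 members were above 0.

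**Figure D2:**
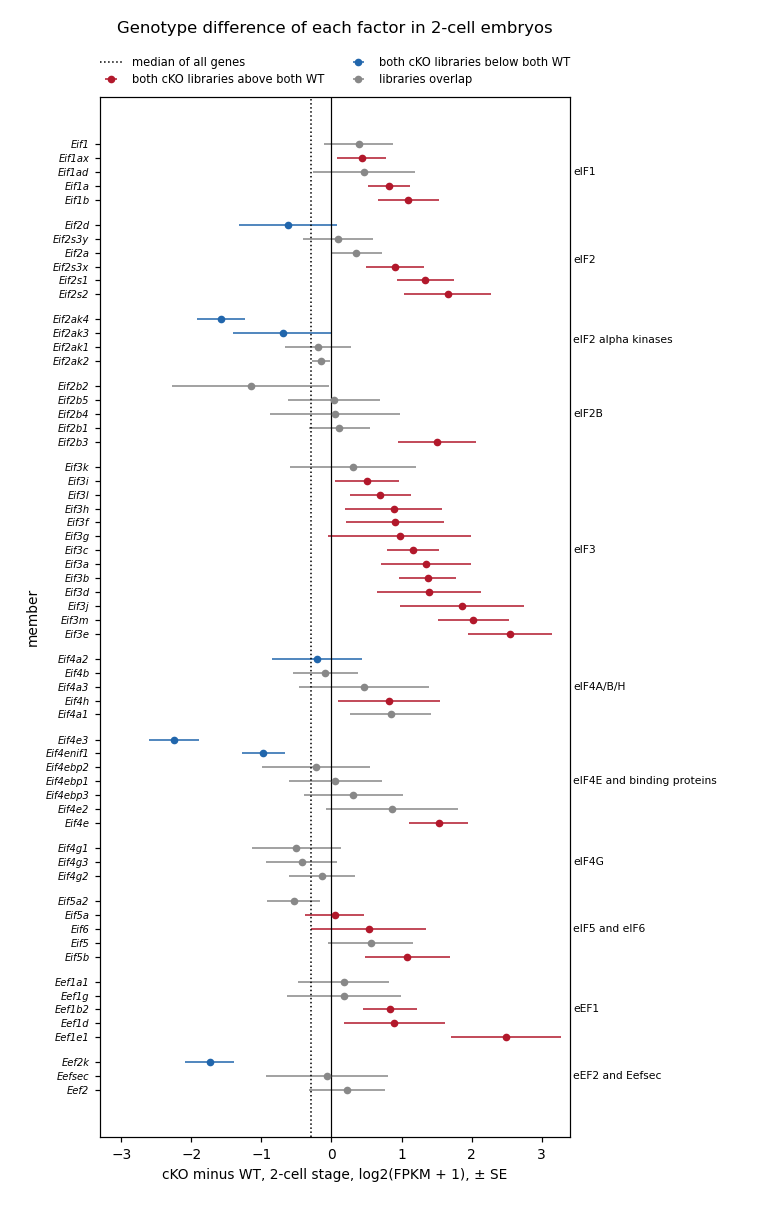
Difference between cKO and WT 2-cell embryos for each member (points, log2(FPKM + 1) scale, bars ± SE from limma), grouped by complex. Red marks members with both cKO libraries above both WT libraries, blue those with both below, and the dotted line the median of all genes at -0.30. The 13 eIF3 genes all lie to the right of 0, and Eif4e3, Eef2k and Eif2ak4 lie farthest to the left.

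The cap-binding factor gene Eif4e3 (chr6:99207478-99616791 on the minus strand of mm9) was the most reduced member. It was at 48.4 and 63.0 FPKM in WT and at 12.4 and 9.43 in cKO 2-cell embryos. The cKO libraries lay below the WT libraries and the means differed 5.11-fold (log2 difference -2.25 ± 0.35 SE, adjusted p = 0.0242, limma). The call held in 12 of 18 alternatives, among them a crossed pairing of the 2-cell libraries that was chosen after seeing the data. It was lost without WT zygote replicate 1 (adjusted p = 0.0530), WT zygote replicate 2 (0.0531), cKO 2-cell replicate 1 (0.0582) or cKO 2-cell replicate 2 (0.0968), and with median-ratio scaling (0.0755) or only the 2-cell groups in the fit (0.0751), while the log2 difference stayed between -2.48 and -1.79. Where a library was left out, the other library of its group kept the weight of the group, which had been estimated with both. The spread then came from the other groups and was scaled by the weights.

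Eef2k (chr7:127986345-128050733, plus strand), whose kinase slows elongation by phosphorylating eEF2, was the other member called lower. Its level was 10.7 and 13.9 FPKM in WT and 2.80 and 3.12 in cKO 2-cell embryos, a 4.15-fold difference of the means without overlap (log2 difference -1.74 ± 0.35 SE, adjusted p = 0.0431). Over 18 alternatives the log2 difference of Eef2k ranged from -2.04 to -1.11. Of these, 7 kept the call, the crossed pairing among them. Leaving out WT 2-cell replicate 1 kept it, at an adjusted p of 0.0302. Each of the other 7 libraries ended it when left out. The adjusted p was then 0.0724 without WT zygote replicate 1 and 0.0728 without WT zygote replicate 2. It was 0.0585 and 0.0581 without cKO zygote replicates 1 and 2, 0.0527 without WT 2-cell replicate 2, and 0.114 and 0.122 without cKO 2-cell replicates 1 and 2. The call of Eef2k was also lost with log2(FPKM + 5) (0.0825), median-ratio scaling (0.0820), quantile normalization (0.140) and only the 2-cell groups in the fit (0.0944).

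Eif2ak4 and Eif4enif1 were also lower in both cKO libraries and did not pass the test. Eif2ak4 (chr2:118214353-118300970, plus strand) encodes GCN2, the eIF2 alpha kinase that senses uncharged tRNA. It was at 6.57 and 5.94 FPKM in WT and at 1.96 and the floor of 1 in cKO 2-cell embryos, so that its 4.22-fold difference is a lower bound (log2 difference -1.57 ± 0.35 SE, adjusted p = 0.0523). Without cKO 2-cell replicate 1, the library above the floor, Eif2ak4 was called lower (adjusted p = 0.0473), with 1 cKO 2-cell library at the floor left and the spread taken from the other groups. Eif4enif1 (chr11:3102395-3144591, plus strand) encodes 4E-T, which binds eIF4E and holds messengers in repressed particles of the oocyte. It was at 96.4 and 84.0 FPKM in WT and at 43.7 and 47.2 in cKO 2-cell embryos (log2 difference -0.97 ± 0.31 SE, adjusted p = 0.117). All 4 of these genes also fell from zygote to 2-cell embryo in WT, a comparison that shares the WT 2-cell libraries. The sum of the 7 oocyte markers was also lower in cKO than in WT 2-cell libraries, with Oosp1 alone at 4936 and 3711 FPKM in WT and 544 and 1876 in cKO. Of the 7 markers, 4 had both cKO libraries below both WT libraries and 1 was called lower, while 3 had differences above 0 and 1 of these, Zp3, was higher in cKO without overlap (116 and 149, against 115 and 70.9). The part of these markers in the results was not tested.

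**Figure D3:**
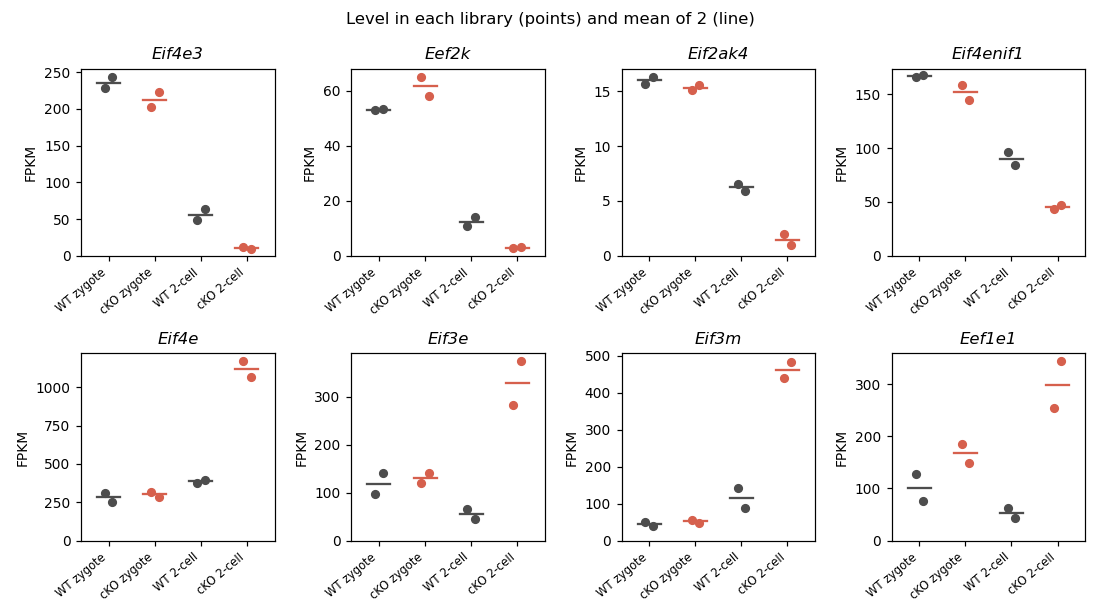
FPKM of 8 members in each library (points) with the mean of the 2 libraries of a group (line), in grey for WT and red for cKO, each panel with its own axis from 0. In 2-cell embryos both cKO points lie below both WT points for Eif4e3, Eef2k, Eif2ak4 and Eif4enif1, and above them for Eif4e, Eif3e, Eif3m and Eef1e1.

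eIF3 was the complex with the highest median difference, except without cKO 2-cell replicate 1, where the median of the eIF2 group was higher (0.77). All 13 eIF3 genes had a log2 difference above 0, with a median of 1.17 and a range from 0.31 (Eif3k) to 2.54 (Eif3e). For 12 of the 13 both cKO libraries were above both WT libraries, beside 14.0% of all genes. The means of 4 were more than 3-fold higher, beside 2.84% of all genes. In the limma test 0 were called higher, beside 0.834%, and 4 were higher at an unadjusted p under 0.05, beside 4.79%. The median over the 13 genes was 0.92 with libraries scaled to the same sum, 1.64 with median-ratio scaling, 0.63 without cKO 2-cell replicate 1 (12 of 13 above 0) and 1.67 without cKO 2-cell replicate 2. Their summed FPKM was 940.2 and 928 in WT and 2572 and 1980 in cKO 2-cell embryos, compared with 598 to 733 in the zygote libraries.

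Within eIF3, the subunits were not equally far apart. Eif3e (chr15:43081586-43114282, minus strand) was at 66.3 and 45.6 FPKM in WT and at 284 and 374 in cKO 2-cell embryos (5.88-fold, log2 difference 2.54 ± 0.60 SE, adjusted p = 0.0606). Eif3m (chr2:104839813-104857237, minus strand) was at 142 and 89.1 in WT and at 439 and 484 in cKO (4.00-fold, adjusted p = 0.0707). Both cKO libraries were high for these genes, with little spread between them. Eif3j was at 12.9 and 62.7 in WT and at 101 and 115 in cKO, 2.85-fold on average, with the WT replicates far apart (adjusted p = 0.254). Eif3j was called higher without WT 2-cell replicate 2, the library at 62.7 (adjusted p = 0.00484), with 1 WT 2-cell library left and the spread taken from the other groups. Eif3a, the scaffold subunit, was at 25.3 and 35.9 in WT and at 158 and 38.5 in cKO, so that its second cKO library nearly met the WT range. Eif3d was at 9.60 and 10.3 in WT and at 52.4 and 14.4 in cKO, so that its cKO libraries were also far apart. Eif3k overlapped, with 79.4 and 88.4 in WT and 150.0 and 72.6 in cKO. Eif3e, Eif3m, Eif3h and Eif3j each have 1 further place in the mm9 genome that matches at least 50% of the transcript at 95% identity, and how reads were shared with such copies is not given in the sources used here. Of the 61 members 15 have such a place.

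Genes of the ternary complex lay higher, and those of the kinases that inhibit it did not. Eif2s1, which encodes the alpha subunit that the kinases phosphorylate, was at 124 and 120.4 FPKM in WT and at 275 and 350.2 in cKO 2-cell embryos (log2 difference 1.34 ± 0.41 SE, adjusted p = 0.109). The beta subunit gene Eif2s2 was at 221 and 179 in WT and at 602 and 658 in cKO (adjusted p = 0.161). Eif2s3x, for the gamma subunit, was at 51.8 and 48.5 in WT and at 98.5 and 91.4 in cKO (adjusted p = 0.236). For these 3 subunits the groups did not overlap, and none passed the test. Eif2s3y overlapped, with 14.1 and 15.6 FPKM in WT and 28.8 and 8.55 in cKO. Eif2d, which delivers tRNA without GTP, was lower in both cKO libraries, at 39.6 and 37.0 in WT and 21.1 and 28.7 in cKO (adjusted p = 0.634). Eif2a, an alternative initiator, overlapped.

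The 4 eIF2 alpha kinases had differences below 0, with a median of -0.44, compared with -0.30 for all genes. With median-ratio scaling 1 of them (Eif2ak1) was above 0, as was 1 without cKO 2-cell replicate 2. Beside Eif2ak4, the endoplasmic reticulum kinase gene Eif2ak3 (PERK) was at 6.83 and 9.82 FPKM in WT and at 3.84 and 5.68 in cKO 2-cell embryos, without overlap (adjusted p = 0.588). Eif2ak1, for the heme-regulated kinase, was at 14.1 and 17.5 in WT and at 21.8 and 8.39 in cKO, which overlapped. Eif2ak2 (PKR) was at the floor in 7 of the 8 libraries and at 1.46 in the remaining WT 2-cell library. In eIF2B, Eif2b3 was at 19.5 and 14.9 in WT and at 80.9 and 31.3 in cKO (3.26-fold, adjusted p = 0.159). The cKO libraries of the other 4 eIF2B genes overlapped those of WT. Eif2b2 had 41.0 and 3.39 FPKM in the cKO replicates, with 24.7 and 34.5 in WT. Eif2b1, Eif2b4 and Eif2b5 had log2 differences of 0.11, 0.05 and 0.03, and the median of the 5 genes, 0.05, became -0.20 with libraries scaled to the same sum, 0.53 with median-ratio scaling, and -0.08 and 0.47 without cKO 2-cell replicates 1 and 2.

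In the eIF4 group the direction depended on the gene. Eif4e (chr3:138189155-138220563, plus strand), the cap-binding protein of eIF4F, was at 378 and 398 FPKM in WT and at 1174 and 1069 in cKO 2-cell embryos, the most abundant member in the second cKO library (2.89-fold, log2 difference 1.53 ± 0.42 SE, adjusted p = 0.0863). It thus lay opposite to its paralog Eif4e3. The third family member Eif4e2 overlapped, with 25.2 and 45.8 in WT and 120.4 and 32.5 in cKO. Of its binding proteins, Eif4ebp1, Eif4ebp2 and Eif4ebp3 had cKO libraries on both sides of WT. Eif4ebp2 had the widest gap of all members between the cKO replicates, 18.7 and 1.53 FPKM, or 12.2-fold.

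Scaffold and helicase genes showed no common direction. The 3 eIF4G scaffold genes overlapped between genotypes. Eif4g1 was at 23.9 and 28.2 in WT and 41.5 and 7.59 in cKO, Eif4g2 at 256 and 189 in WT and 208 and 192 in cKO, and Eif4g3 at 5.31 and 7.08 in WT and 7.12 and 2.48 in cKO. All 3 differences were below 0, with a median of -0.43, compared with -0.30 for all genes. However, 1 gene (Eif4g2) was above 0 with median-ratio scaling, and the median was 0.19 without cKO 2-cell replicate 2. Of the helicase eIF4A and its partners, Eif4h was higher in both cKO libraries (41.1 and 27.8, against 18.7 and 18.6) and Eif4a2 lower (162 and 149, against 168 and 191). Eif4a1 was at 347 and 179.9 in WT and at 270.4 and 747 in cKO, which overlapped, as did Eif4a3 and Eif4b.

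All 5 genes of the eIF1 group had differences above 0. Eif1a was at 73.8 and 70.3 FPKM in WT and at 118 and 139 in cKO (1.78-fold, adjusted p = 0.153), Eif1b at 51.9 and 67.0 in WT and 178 and 91.1 in cKO (adjusted p = 0.185), and Eif1ax at 82.1 and 64.1 in WT and 87.7 and 111 in cKO (adjusted p = 0.494). In these 3 the libraries did not overlap, whereas Eif1 (963 and 899 in WT, 1701 and 870.3 in cKO) and Eif1ad overlapped. Without cKO 2-cell replicate 1, 3 of the 5 were above 0. Of the factors for subunit joining, Eif5b, the GTPase of that step, was at 18.9 and 23.5 in WT and at 72.7 and 28.7 in cKO, and Eif6, which keeps the subunits apart, at 341 and 308 in WT and 570.0 and 385 in cKO, both without overlap (adjusted p = 0.325 and 0.738). Eif5, for the GTPase activator of eIF2, overlapped. Eif5a was at a like level in all 4 2-cell libraries, at 953 and 920.4 in WT and 968 and 964 in cKO. Eif5a2 was at 12.8 and 8.46 in WT and 5.01 and 9.28 in cKO.

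Among elongation factors, Eef1e1 (chr13:38737567-38750897, minus strand) was farthest from WT. It encodes a small protein of the multi-synthetase complex, in spite of its name no elongation factor proper. Its level was 61.6 and 43.3 FPKM in WT and 254 and 343 in cKO 2-cell embryos (5.70-fold, log2 difference 2.49 ± 0.79 SE, adjusted p = 0.117). The exchange factor genes Eef1b2 (59.8 and 58.0 in WT, 87.7 and 128 in cKO) and Eef1d (49.7 and 58.8 in WT, 159 and 64.8 in cKO) were higher in both cKO libraries, with adjusted p of 0.237 and 0.495. Eef1a1, which carries the aminoacyl-tRNA, overlapped at 318 and 349 in WT and 487 and 291 in cKO. Eef1g and Eef2 overlapped too, Eef2 with 52.3 and 45.5 in WT and 93.3 and 34.8 in cKO. Eefsec, the selenocysteine elongation factor, was at 4.40 and 6.07 in WT and at 4.94 and 4.93 in cKO.

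Several members are known as TOP messengers, which begin with a tract of C and T letters and whose translation follows mTOR. The 9 taken as such were Eef1a1, Eef1b2, Eef1d, Eef1g, Eef2, Eif3e, Eif3f, Eif3h and Eif4b. Of these, 8 had a cKO minus WT difference above 0 in 2-cell embryos. For 5 both cKO libraries lay above both WT libraries, beside 14.0% of all genes. The median log2 difference of the 9 was 0.84, compared with 0.41 for the other 52 members and -0.30 for all genes. With libraries scaled to the same sum, 5 of the 9 were above 0 and their median was 0.59, beside 0.17 for the other members. Without cKO 2-cell replicate 1, 5 were above 0 and the 2 medians were 0.26 and -0.05. The medians lay closer together without cKO 2-cell replicate 2 (0.92 and 0.82) and with quantile normalization (0.60 and 0.41). The windows from 15 bases before to 15 bases after the RefSeq start site (GRCm38.p6) were searched on the gene's strand for a run of at least 6 C or T letters. Such a run was found in 29.2% of 32851 windows of all genes and in 27.0% of the 63 windows of the 48 members listed there. It was present for 3 of the 5 TOP members listed. Of the 9 eIF3 windows 3 held a run (33.3%), those of Eif3f, Eif3l and Eif3m. The windows below are printed 5′ to 3′ with the longest run in capitals, for the 5 TOP members and for Eif3l and Eif3m. The eIF3 windows without a run are not printed.
Eef1a1, chr9:78481710-78481739, minus strand: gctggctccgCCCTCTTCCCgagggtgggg
Eif3f, chr7:108934400-108934429, plus strand: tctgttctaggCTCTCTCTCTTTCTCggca
Eif4b, chr15:102073758-102073787, plus strand: ggTCTTCCCgtcggacgccgcgccaccccc
Eef1b2, chr1:63176816-63176845, plus strand: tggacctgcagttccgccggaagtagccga
Eef2, chr10:81176616-81176645, plus strand: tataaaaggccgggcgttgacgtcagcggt
Eif3l, chr15:79075208-79075237, plus strand: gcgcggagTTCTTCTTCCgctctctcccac
Eif3m, chr2:105017013-105017042, minus strand: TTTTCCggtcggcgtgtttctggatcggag
The run crosses the start site in Eef1a1, Eif3f and Eif3l, ends before it in Eif4b and Eif3m, and is not in the windows of Eef1b2 and Eef2. In 2-cell embryos Eif3f, with a run of 15 letters, was at 35.5 and 33.6 FPKM in WT and 92.8 and 46.0 in cKO. Eif4b, with a run of 7, overlapped at 21.9 and 26.5 in WT and 35.4 and 14.3 in cKO. Eif3l was at 46.6 and 41.4 in WT and 75.3 and 68.5 in cKO without overlap. A run of letters in a window is a description and no evidence of a start there.

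In zygotes, where the embryos still carry the oocyte's messengers, the members of cKO and WT were close together. Of the 61 members 0 were called lower and 0 higher by limma, beside 0.0278% and 0.167% of all genes, and 1 and 3 had an unadjusted p under 0.05, beside 3.53% and 7.34% of all genes. The median difference was 0 for the members and for all genes. Both cKO libraries lay above both WT libraries for 6 members, beside 15.8% of all genes, and below them for 10 members, beside 10.2% of all genes.

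The widest zygote difference was that of Eef1e1, higher in both cKO libraries, at 127 and 75.1 FPKM in WT and at 186 and 148 in cKO zygotes (1.65-fold, log2 difference 0.76 ± 0.24 SE, adjusted p = 0.329). Eif2a was at 11.9 and 13.5 in WT and at 18.3 and 19.5 in cKO (1.48-fold, adjusted p = 0.176). Eif1ax was at 120.1 and 135 in WT and at 179.7 and 169 in cKO (1.37-fold, adjusted p = 0.217). Among members with a group mean of at least 5 FPKM and no overlap, Eif4g3 was the next highest, at 10.4 and 8.81 in WT and 12.6 and 11.1 in cKO (adjusted p = 0.668). Among those with lower cKO libraries and the same minimum, Eif5a was farthest from WT, at 621 and 558 in WT and at 512 and 436 in cKO (log2 difference -0.32 ± 0.13 SE, adjusted p = 0.456). The lowly expressed Eif4ebp2 had a wider difference of -0.49 (adjusted p = 0.584). Above the minimum, Eef1b2, Eif3i and Eif4e3 followed with log2 differences of -0.28, -0.23 and -0.15. None of these members passed the test. Eif4e3 and Eef2k, the members called lower in cKO 2-cell embryos, were in zygotes at 228 and 243 in WT against 202 and 223 in cKO, and at 52.8 and 53.1 in WT against 64.9 and 58.2 in cKO.

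Between cKO zygotes and cKO 2-cell embryos, 26 members rose and 5 fell, beside 20.7% and 18.2% of all genes. Of the 26 that rose in WT, 22 also rose in cKO, 84.6% of either list. The 4 called in WT alone were Eif2ak3, Eif2b4, Eif2d and Eif4g1, and the 4 called in cKO alone were Eef1b2, Eif2s1, Eif4e and Eif4h. Of the 12 that fell in WT, 5 also fell in cKO (Eif1b, Eif4e3, Eef2k, Eif2ak4 and Eif4enif1), which were 100% of the cKO list and 41.7% of the WT list. Such overlap was not counted over all genes, so that these shares cannot be called particular to the members. The median member changed by 1.27 on the log2 scale and the median gene by 0. When 1 of the 2-cell libraries was left out, fewer members and fewer of all genes were called higher. Without cKO 2-cell replicate 1 the members were called higher about as often as all genes. The median member changed by 1.05 in that fit and by 1.72 without cKO 2-cell replicate 2, with the median gene at 0 in both.

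On the log2(FPKM + 1) scale Eif4e3 fell the most in cKO, from 202 and 223 FPKM in zygotes to 12.4 and 9.43 in 2-cell embryos (19.5-fold, log2 change -4.17 ± 0.31 SE, adjusted p = 0.000575), compared with 4.23-fold in WT. Eef2k fell from 64.9 and 58.2 to 2.80 and 3.12 FPKM (20.8-fold, log2 change -3.98, adjusted p = 0.000614), compared with 4.31-fold in WT. Eif2ak4 fell from 15.1 and 15.6 to 1.96 and the floor (at least 10.4-fold, adjusted p = 0.00138), compared with 2.56-fold in WT. Eif1b fell 4.35-fold in cKO (adjusted p = 0.00599) and 9.23-fold in WT, so that this member fell less in cKO. The largest rises in cKO on the log2 scale were those of Eif1a, Eif3j, Eif4ebp1 and Eif3l. Eif1a and Eif3j left the floor, by at least 128-fold and 108-fold, and Eif4ebp1 and Eif3l rose 24.7-fold and 14.9-fold. Eif3e, which fell in WT, was at 121 and 140.3 in cKO zygotes and at 284 and 374 in cKO 2-cell embryos (2.52-fold, adjusted p = 0.0943).

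Whether the genotype difference changed from zygote to 2-cell embryo was tested as an interaction in the same model. It called 2 members, both with a more negative difference in 2-cell embryos, beside 4.55% of all genes in that direction, and 0 in the other, beside 0.605%. At an unadjusted p under 0.05 there were 4 and 10 members, beside 20.0% and 4.14% of all genes. The called members were Eif4e3 (interaction -2.10 ± 0.37 SE on the log2 scale, adjusted p = 0.0349) and Eef2k (-1.95 ± 0.37 SE, adjusted p = 0.0409). Eif2ak4 came next and did not pass (-1.52 ± 0.36 SE, adjusted p = 0.0695). Eif3e followed, with a positive value that did not pass either (2.39 ± 0.63 SE, adjusted p = 0.0839). The calls of Eif4e3 and Eef2k depended on the libraries and the scaling. Neither was called when any of the 4 zygote libraries or either cKO 2-cell library was left out. Those fits also called fewer of all genes with a negative interaction. With quantile normalization 0 members were called, beside 184 of all 14392 genes with a negative and 185 with a positive interaction. With median-ratio scaling neither Eif4e3 nor Eef2k was called (adjusted p = 0.112 and 0.0769), and Eif3c and Eif4e were called in the other direction (0.0452 and 0.0497). With log2(FPKM + 5) the call of Eef2k was lost (0.0692).

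**Figure D4:**
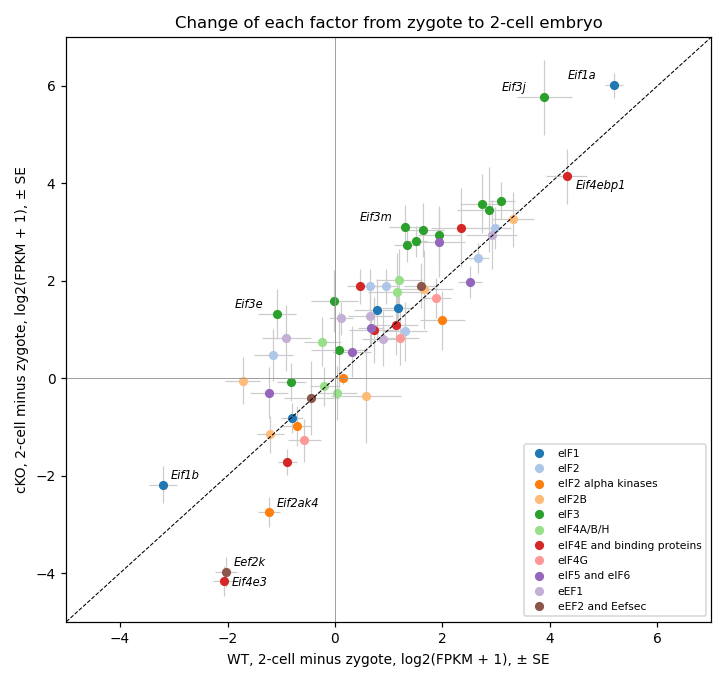
Change of each member from zygote to 2-cell embryo in WT (horizontal axis) and in cKO (vertical axis), both on the log2(FPKM + 1) scale with bars ± SE from limma and coloured by complex. The dashed line marks equal change. Eif4e3, Eef2k and Eif2ak4 lie below it at the lower left, and Eif3e and Eif3m above it.

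Genes outside the rule that act with these factors were followed as 7 groups, of whose 46 genes 43 were listed. In cKO against WT 2-cell embryos 1 was called lower and 0 higher, 28 had differences below 0 and 15 above, and the median was -0.44, compared with 0.43 for the 61 members and -0.30 for all genes. With median-ratio scaling 22 were below 0 and 21 above, with a median of -0.01, beside 0.91 for the members and 0 for all genes, and without cKO 2-cell replicate 2 the median was -0.17. The gene called lower was Gspt2, which encodes a termination factor of the eRF3 type. It was at 6.55 and 6.82 FPKM in WT and at the floor in both cKO libraries (adjusted p = 0.0252). Its paralog Gspt1 was at 12.9 and 13.7 in WT and 28.8 and 15.02 in cKO. The 6 termination and recycling genes had a median difference of 0.52 (0.08 and 0.86 without cKO 2-cell replicates 1 and 2), and the 6 of 9 listed genes that modify eIF5A and eEF2 a median of 0.81. The 7 genes for poly(A) binding had a median of -0.41, the 10 genes of mTOR and its kinases a median of -0.39 and the 3 helicases a median of -0.44, with members on both sides of 0 in each. With median-ratio scaling these 3 medians were 0.06, 0.03 and -0.02. They were -0.13, -0.77 and -0.73 without cKO 2-cell replicate 1, and -0.07, 0.08 and 0.0014 without replicate 2. All 5 genes of the eIF2 stress response had differences below 0, with a median of -0.93 and 0 called. Ddit3, Ppp1r15b and Trib3 were lower in cKO without overlap. The transcription factor gene Atf4 overlapped, at 368 and 343 FPKM in WT and 249 and 401 in cKO. So did the phosphatase subunit gene Ppp1r15a, at 89.4 and 137 in WT and 117 and 28.1 in cKO. Of the 5 genes, 4 were below 0 with median-ratio scaling or without either cKO 2-cell replicate. The 6 Eif1a-like genes that are switched on in 2-cell embryos also lay below 0, with a median of -1.39 and 0 called (4 of the 6 below 0 and a median of -0.60 without cKO 2-cell replicate 1), whereas Eif1a itself was at 118 and 139 FPKM in cKO against 73.8 and 70.3 in WT.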

How the data were processed

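RNA was measured in 8 Smart-seq2 libraries primed with oligo-dT. According to the methods and the submitters' processing notes, the authors trimmed reads to 50 bp, mapped them to mouse mm9 with TopHat2 2.1.1 and computed FPKM with Cufflinks 2.2.1. The deposited FPKM values are normalized in a further way that, like the annotation, is not given in the sources used here. Values under 1 had been set to 1 and genes never above 1 removed. Read depth is unknown, so that precision was judged from the spread between replicate libraries alone.

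From these, log2(FPKM + 1) was tested with limma 3.58.1 (R 4.3.3) over all 14392 genes, with all 4 groups in 1 model, a trend in the prior and 1 array weight per group, since the spread was widest in cKO 2-cell embryos. This scale understates changes of low genes. A p-value rests on the spread between replicate libraries, pooled over the 4 groups and moderated over all genes. This spread may be technical. The steps were tested on simulated data. The study's own fold rule of 3 was applied to group means. Positions come from GENCODE M1 on NCBIM37 (mm9), genome copies from minimap2 and start-site windows from RefSeq (GRCm38.p6). Other steps used Python 3.11.15, pandas 2.3.3 and numpy 2.4.6.

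The members and lists were chosen with earlier results of these data known. Members were named with values by their role, by the 4 widest differences in each direction of each contrast among members with a group mean of at least 5 FPKM and groups that did not overlap, by the interaction, by the gap between cKO 2-cell replicates and by the highest means; others named in passing were chosen after their values were seen. Alternatives covered pseudocount, filter, scaling, weights, samples in the fit, replicate block and each library left out. The H2AK119ub1 samples of the study were not analysed here.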

Additional observations from a re-analysis of the deposited data

Results flagged for a closer look

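For Eif4e3 and Eef2k the difference between cKO and WT was not the same at the 2 stages by the interaction test. The cKO minus WT difference of Eif4e3 on the log2 scale was -0.15 in zygotes and -2.25 in 2-cell embryos, so that the difference between stages was -2.10 (adjusted p = 0.0349, limma), with both cKO libraries below both WT libraries at each stage. For Eef2k it was 0.21 in zygotes and -1.74 in 2-cell embryos, a difference between stages of -1.95 (adjusted p = 0.0409), with groups that did not overlap at either stage. Neither was called when any of the 4 zygote libraries or of the 2 cKO 2-cell libraries was left out, nor with median-ratio scaling or quantile normalization. Eef2k was not called with log2(FPKM + 5). Fewer of all genes with a negative interaction were called in the fits that left out such a library.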

How the results depend on the processing

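Depth is unknown here, and 2 libraries per group limit every call. In cKO against WT 2-cell embryos limma called 2 members lower. That number was 1 with log2(FPKM + 5) or quantile normalization, 0 with median-ratio scaling or with only the 2 groups compared, and 4 without group weights, and it ranged from 0 to 3 when each library was left out. The number called higher was 0, and became 4 with a filter on a mean of at least 5 FPKM, 4 with median-ratio scaling, 12 without group weights, 4 with the replicate block and 0 to 1 when each library was left out. The 4 under the filter were the 4 under the block (Eef1e1, Eif3e, Eif3m and Eif4e). Over all 14392 genes, 854 were called lower and 120 higher. These numbers were 783 and 148 with log2(FPKM + 5), 281 and 280 with quantile normalization, and 345 and 245 with median-ratio scaling. They were 3538 and 887 without group weights, 1071 and 156 with the replicate block, and 0 and 0 with only the 2 groups compared. The filter kept 9530 genes, of which 931 were lower and 162 higher.

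From WT zygote to WT 2-cell embryo, 12 members fell and 26 rose. Fewer members and fewer of all genes were called where 1 of the WT 2-cell libraries was left out. Over all 14392 genes in cKO, 3185 fell with quantile normalization and 3896 without group weights, and 1979 rose with only the 2 groups compared. Of the members in cKO, 5 fell and 26 rose. The number that fell was 8 with quantile normalization and 8 without group weights, and 4 to 6 when each library was left out. The number that rose was 12 with only the 2 groups compared and 10 to 27 when each library was left out. The interaction called 2 members, 1 with log2(FPKM + 5), 0 with quantile normalization and 8 without group weights. With median-ratio scaling it called 2 others (Eif3c and Eif4e, in the other direction). Leaving out a zygote or cKO 2-cell library ended the calls of Eif4e3 and Eef2k. Fewer of all genes with a negative interaction were then called.

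By the fold rule, 7 members were over 3-fold higher in cKO 2-cell embryos. The number was 18 at 2-fold, 3 when every library had to differ by 3-fold, 14 with median-ratio scaling, 4 with sum scaling and 5 to 14 when each library was left out. The number lower, 3, was 3 to 6 when each library was left out. In WT, 4 members were over 3-fold lower in 2-cell embryos and 9 at 2-fold, and 20 were over 3-fold higher and 13 when every library had to differ, with 3 to 4 and 17 to 21 when each library was left out.

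The labels share replicate numbers across groups without describing a pairing. Deviations of same-numbered libraries correlated at 0.497 between the zygote groups and at -0.239 between the 2-cell groups. With the replicate block the WT stage comparison called 13 lower and 31 higher, the cKO stage comparison 7 and 31, and the interaction 3. Over all 14392 genes the block called 2578 lower and 5667 higher in WT, and 3291 and 3280 in cKO. A crossed pairing of the 2-cell libraries, chosen after seeing the data, called 2 members lower and 4 higher in cKO 2-cell embryos. Of all 14392 genes this pairing called 1123 lower and 181 higher. The cause of these changes was not tested. The 8 members named for the widest differences between cKO and WT 2-cell embryos had been chosen without overlap of the groups. With that choice, leaving out a library could not change the sign, and 0 changed it in 18 alternatives.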
